A study of Mus musculus with 12 samples.

Results

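The subject is 1 microarray: mouse embryonic fibroblasts that had received SKO and microRNA cluster C, read at day 8. It was set against the 2 other arrays of the same day with SKO, which carried cluster B or a blank control virus. A gene was taken as a member when its log2 value on the cluster C array lay at least 1 unit, which is 2-fold, above both of the others or below both. Of 19938 genes, 45 met this rule, 43 of them above both (0.216% of the genes) and 2 below both (0.0100%). The rule chose the members by these same values, and each condition had 1 array, so the day 8 differences are a description with no test.

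The cells were fibroblasts of embryos from OG2 mice crossed with 129/sv. OG2 mice carry a green fluorescent reporter under regulatory sequence of Pou5f1, the gene of Oct4. SKO is not spelled out in the labels; it is read here as Sox2, Klf4 and Oct4, factors that reprogram fibroblasts. The 3 arrays of day 8 are SKO with cluster C retrovirus, SKO with cluster B retrovirus and SKO with blank virus, all from cells kept in embryonic stem cell medium for 8 days counted from the first infection. The series has 12 arrays, which add the same 3 viruses with SKO at day 4 and without SKO at days 8 and 4. Titles of the arrays without SKO all carry the word Group2, which those with SKO lack. The titles do not say what it stands for, so SKO and this grouping cannot be told apart. Feeder cells were removed before RNA was extracted from the whole culture, so a larger number of cells that express a gene and more RNA per cell cannot be told apart in any value below. The virus infects a mixed culture, and the labels do not say which share of the cells took it up. Every array carries the same description line, naming an iPSC precursor line and day 3, which fits none of the titles. Conditions were therefore taken from the titles.

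Fibroblasts that receive Oct4, Sox2 and Klf4 first lose mesenchymal features and gain epithelial ones. A minority of the cells later switch on the embryonic stem cell programme, in which the cells' own Nanog, Sox2 and Esrrb keep each other active. MicroRNAs are short RNAs that pair with messenger RNAs mainly through their seed, bases 2 to 8, and lower the output of the messages they match. The Mir302 and Mir367 microRNAs are made from a single transcript that embryonic stem cells express and fibroblasts do not.

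The 5 genes of that transcript, Mir302b, Mir302a, Mir302d, Mir302c and Mir367, were all members. Their mature sequences in RefSeq (GRCm38.p6) are shown because the probe sets of these genes set the cluster C array apart on both days, and the seed is in capitals. Mir302a was matched by name only.
miR-302b-3p (chr3:127545275-127545297, plus strand): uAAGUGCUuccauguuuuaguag
miR-302d-3p (chr3:127545665-127545687, plus strand): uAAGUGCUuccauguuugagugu
miR-302c-3p (chr3:127545406-127545427, plus strand): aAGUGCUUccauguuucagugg
miR-367-3p (chr3:127545779-127545800, plus strand): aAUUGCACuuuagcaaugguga
The miR-302b and miR-302d entries share the seed AAGUGCU. The miR-302c entry holds the same letters, but RefSeq starts it 1 base later, which moves the seed window by 1. miR-367 has the seed AUUGCAC. For comparison, 3 microRNAs whose probe sets were higher on the cluster B array than on the others of day 8, picked after their values were seen, read as follows.
miR-363-3p (chrX:52741697-52741718, minus strand): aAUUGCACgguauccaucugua
miR-106a-5p (chrX:52742541-52742563, minus strand): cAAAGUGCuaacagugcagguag
miR-20b-5p (chrX:52742159-52742181, minus strand): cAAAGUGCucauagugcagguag
miR-363 has the same seed as miR-367, while miR-106a and miR-20b share the seed AAAGUGC. The run AAGUGC lies inside the seed of miR-302b, miR-302d, miR-106a and miR-20b, shifted by 1 base between these pairs, and starts before the seed window of the miR-302c entry.

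Mir302b was at 7.15 on the cluster C array, 2.32 on the cluster B array and 1.77 on the blank virus array of day 8. Mir302a was at 6.19 with cluster C, 2.55 with cluster B and 2.02 with blank virus. Mir302d was at 6.53 with cluster C, 2.85 with cluster B and 2.98 with blank virus. The arrays without cluster C read all 3 genes below 3.58, the lower quartile of all values of the table. A difference from a value that dim is best read as a lower bound, which holds for 17 of the 43 members, with both other arrays under the lower quartile. Mir302c was at 6.38 with cluster C, 3.08 with cluster B and 2.64 with blank virus, and Mir367 at 4.81 with cluster C, 1.62 with cluster B and 1.69 with blank virus. Whether these probe sets read the mature RNAs or the longer transcript is not known here. The cluster B array in turn read Mir363 at 5.13, where the cluster C array gave 2.53 and the blank virus array 2.28. Mir106a was dim throughout, at 2.03 with cluster C, 3.40 with cluster B and 2.40 with blank virus. Mir20b was at 2.38 with cluster C, 3.60 with cluster B and 2.43 with blank virus, so its highest value was close to the lower quartile.

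**Figure D1:**
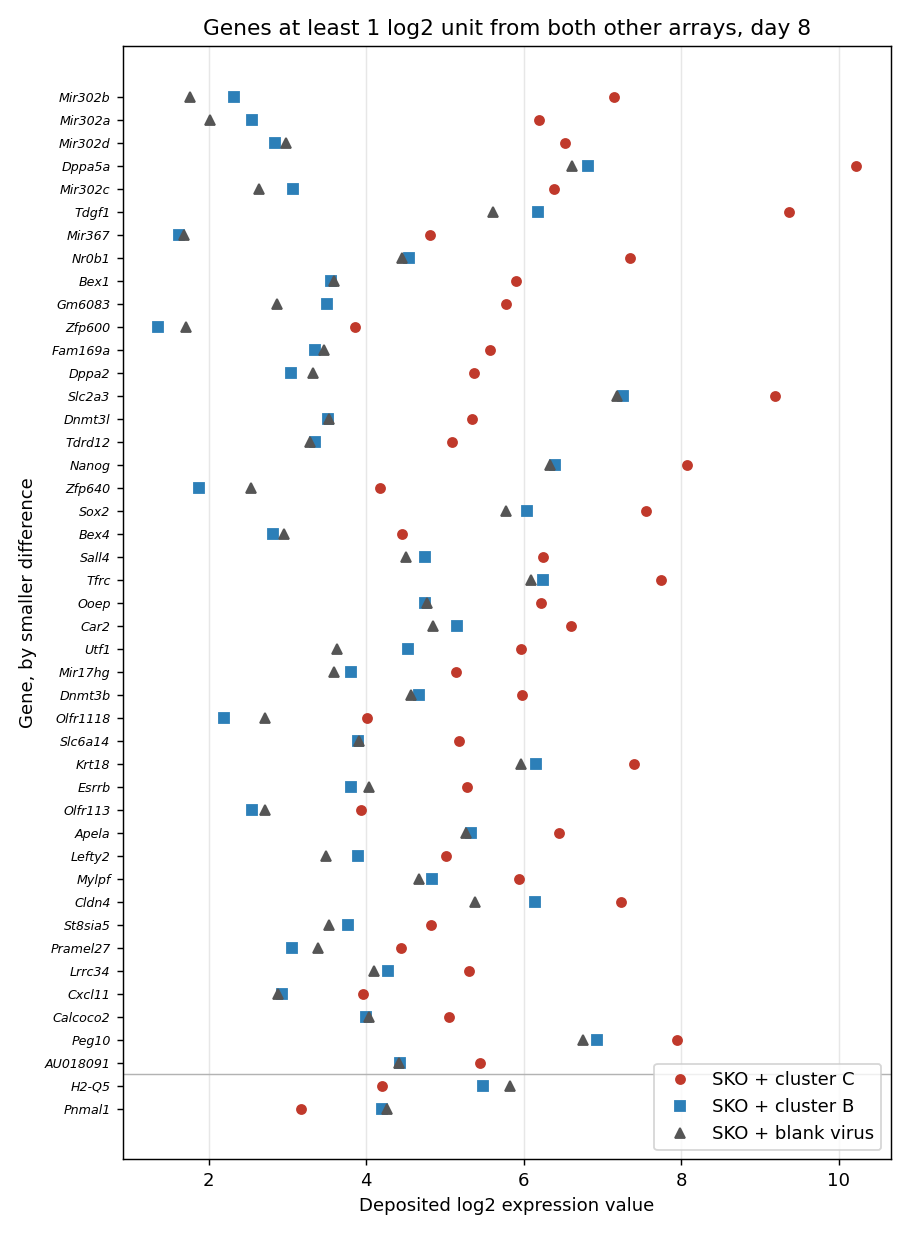
Deposited log2 values of the 45 members, microRNA genes included, on the 3 SKO arrays of day 8, with 1 point per array and 1 row per gene. The cluster C point stands at least 1 unit to the right of both other points for 43 genes and to the left of both for H2-Q5 and Pnmal1. The cluster B and blank virus points lie close together in most rows.

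The difference between the cluster B and blank virus arrays is the only measure of spread that day 8 with SKO offers. Over all genes that difference had a median size of 0.12 log2 units, 95% of genes lay within 0.45, and 99% within 0.69. It reached 1 unit or more for 33 genes. Over the 43 members above both, its median was 0.17 and its largest value 0.90, for Utf1. The smaller of a member's 2 differences had a median of 1.49 and was a median of 7.50 times as large as the spread of that same gene. It was over 2 times the spread for 41 of the 43 members, over 5 times for 34 and over 10 times for 18. The exceptions to the first of these counts were Cldn4, at 1.45 times, and Utf1, at 1.59 times. With 2 arrays behind each spread, a small spread is itself poorly measured.

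**Figure D2:**
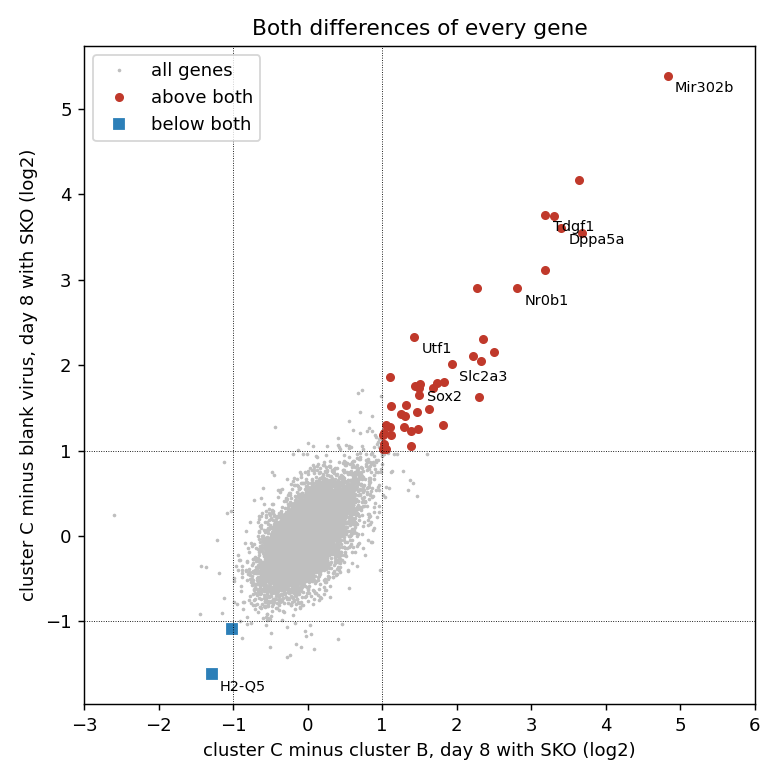
Difference of the cluster C array from the blank virus array against its difference from the cluster B array, both in log2 units, for all 19938 genes at day 8 with SKO. Members lie beyond 1 unit on both axes, 43 at upper right and 2 at lower left, and the dense cloud of other genes sits around 0.

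The whole arrays differed little. The cluster C array correlated with the cluster B array at 0.991 over genes and with the blank virus array at 0.990, and these 2 with each other at 0.994 (Pearson, over genes that share each array's processing). The median size of the difference from the cluster C array was 0.15 for cluster B and 0.16 for blank virus. Over all genes the cluster C array minus the mean of the others had a median of -0.02. Among the presumed delivered factors, Pou5f1 and Klf4 did not set it apart. Pou5f1 was at 11.60 on the cluster C array, 11.87 on the cluster B array and 11.63 on the blank virus array. Without SKO at day 8 it was at 3.35 with cluster C, 4.17 with cluster B and 3.99 with blank virus. How much of the Pou5f1 value with SKO comes from the delivered copy was not tested, so these values do not show how the cells' own gene stood. Klf4 was at 8.63 with cluster C, 8.91 with cluster B and 8.63 with blank virus, and Myc, which is not among the SKO factors, at 8.05 with cluster C, 7.98 with cluster B and 8.09 with blank virus.

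Genes on a pair of lists of pluripotency regulators and markers were 13 of the 43 members above both. Of the 57 measured genes on these lists, these 13 were members above both, where 0.216% of all genes were. Members below both were 0 of the 57, where 0.0100% of all genes were. The lists were drawn up with earlier results of these data known, so these counts give no independent support. Nanog, the transcription factor that stabilises the pluripotent state, was at 8.08 on the cluster C array, 6.39 on the cluster B array and 6.34 on the blank virus array. Its lead was 1.68 over cluster B and 1.74 over blank virus, while the cluster B and blank virus arrays differed by 0.05. Nr0b1 (Dax1), a nuclear receptor protein of embryonic stem cells, was at 7.35 with cluster C, 4.54 with cluster B and 4.45 with blank virus. At day 4 the cluster C array already read it at 5.22, against 4.39 with cluster B and 4.47 with blank virus.

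Sox2, one of the presumed delivered factors and also a gene of the pluripotent cell itself, was at 7.55 on the cluster C array, 6.04 on the cluster B array and 5.77 on the blank virus array. At day 4 it was at 5.34 with cluster C, 5.43 with cluster B and 5.47 with blank virus with SKO. Without SKO at day 4 the same viruses gave 4.55, 4.64 and 4.78. Whether its probe set reads the delivered copy, the cells' own gene or both is not known here and was not tested. Sall4, a zinc finger factor of embryonic stem cells, was at 6.24 with cluster C, 4.75 with cluster B and 4.51 with blank virus. Esrrb, an orphan nuclear receptor of the naive state, was at 5.28 with cluster C, 3.80 with cluster B and 4.03 with blank virus. Utf1, a chromatin protein of undifferentiated cells, was at 5.96 with cluster C, 4.53 with cluster B and 3.63 with blank virus, and its cluster B and blank virus values stand farther apart than those of any other member. Lin28a, which blocks the maturation of let-7 microRNAs and was named here after its values were seen, stayed under the rule at 5.65 with cluster C, 4.86 with cluster B and 4.43 with blank virus. Zfp42 (Rex1) was at 5.17 with cluster C, 4.89 with cluster B and 4.78 with blank virus, which leaves it less than 1 unit above either array. Fgf4, at 6.78 with cluster C, 6.56 with cluster B and 6.57 with blank virus, was closer still. Both were likewise named after their values were seen.

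Among the markers that are not transcription factors, Dppa5a and Tdgf1 had the largest differences of all members outside the microRNAs. Dppa5a, an RNA-binding protein of the early embryo, was at 10.22 on the cluster C array, 6.82 on the cluster B array and 6.61 on the blank virus array, a lead of 3.40 over the nearer of these. Tdgf1 (Cripto), the co-receptor of Nodal, was at 9.37 with cluster C, 6.18 with cluster B and 5.61 with blank virus, a lead of 3.19. On a linear scale these leads are 10.6-fold for Dppa5a and 9.12-fold for Tdgf1. Dppa2, a nuclear protein that acts with Dppa4 on bivalent genes, was at 5.37 with cluster C, 3.04 with cluster B and 3.32 with blank virus, and its other probe set at 3.86 with cluster C, 2.33 with cluster B and 2.24 with blank virus. Dppa4 itself, at 5.44 with cluster C, 4.31 with cluster B and 4.68 with blank virus, missed the rule by its lead of 0.77 over blank virus. Lefty2, a secreted inhibitor of Nodal signalling, was at 5.01 with cluster C, 3.90 with cluster B and 3.49 with blank virus. Apela (Elabela), a peptide hormone that embryonic stem cells secrete, was at 6.45 with cluster C, 5.33 with cluster B and 5.27 with blank virus.

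Both Dnmt3l and Dnmt3b, which act in setting DNA methylation, were also among the members. Dnmt3l, the cofactor of the de novo methyltransferases, was at 5.34 on the cluster C array, 3.51 on the cluster B array and 3.53 on the blank virus array. Dnmt3b, a de novo methyltransferase itself, was at 5.98 with cluster C, 4.67 with cluster B and 4.57 with blank virus. Of 13 measured genes of DNA methylation and demethylation, 2 were members, 10 lay above both arrays by some amount and 3 below both, where 32.9% of all genes lay above both and 40.0% below both. The highest of this list below the member rule were Tet1, which oxidises methylcytosine, at 6.45 with cluster C, 5.55 with cluster B and 5.26 with blank virus, and Zfp57, which guards imprints, at 7.71 with cluster C, 7.05 with cluster B and 7.04 with blank virus. Tdrd12, a factor of the piRNA pathway that silences transposons in germ cells, was at 5.08 with cluster C, 3.35 with cluster B and 3.29 with blank virus. It was the only member among 32 measured germ cell genes.

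Further members above both include Slc2a3, Bex1 and Ooep, which are on the list of pluripotent cell markers, and genes of other roles. Slc2a3 (Glut3), a glucose transporter, was at 9.19 on the cluster C array, 7.26 on the cluster B array and 7.18 on the blank virus array. Of 19 measured glycolysis and glucose uptake genes, 13 lay above both arrays and 2 below both, with a list median of 0.14. Of all genes, 32.9% lay above both and 40.0% below both. Slc2a1 (Glut1), the transporter of most cells, was at 10.06 with cluster C, 9.41 with cluster B and 9.31 with blank virus. Pfkfb3 and Aldoc were the lowest of the list, each at -0.21 from the mean of the other arrays. Tfrc, the transferrin receptor that imports iron, was at 7.74 with cluster C, 6.25 with cluster B and 6.09 with blank virus. For Tfrc, day 8 minus day 4 was 0.56 with cluster C, -1.16 with cluster B and -1.12 with blank virus, so the signs differ between cluster C and the other arrays. Car2, a carbonic anhydrase, was at 6.60 with cluster C, 5.16 with cluster B and 4.85 with blank virus, and Slc6a14, an amino acid transporter, at 5.18 with cluster C, 3.89 with cluster B and 3.91 with blank virus. Mir17hg, the host transcript of the Mir17 to Mir92 microRNAs, was at 5.14 with cluster C, 3.81 with cluster B and 3.60 with blank virus.

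Bex1 and Bex4, small adaptor-like proteins encoded on the X chromosome, were at 5.90 with cluster C, 3.55 with cluster B and 3.59 with blank virus and at 4.45 with cluster C, 2.82 with cluster B and 2.96 with blank virus. Ooep, an oocyte and early embryo protein related to Dppa5a, was at 6.22 with cluster C, 4.75 with cluster B and 4.77 with blank virus. Fam169a, a little studied gene, was at 5.57 with cluster C, 3.36 with cluster B and 3.46 with blank virus. Krt18, a keratin of simple epithelia, was at 7.40 with cluster C, 6.15 with cluster B and 5.97 with blank virus, and Cldn4, a tight junction protein, at 7.24 with cluster C, 6.14 with cluster B and 5.39 with blank virus. Zfp600 was at 3.86 with cluster C, 1.36 with cluster B and 1.71 with blank virus, and Zfp640 at 4.17 with cluster C, 1.88 with cluster B and 2.54 with blank virus. Both belong to zinc finger families of near-identical genes, so which family member these probe sets read is uncertain, although all 3 probe sets of Zfp640 pointed the same way. Mylpf, a muscle myosin light chain, was at 5.94 with cluster C, 4.84 with cluster B and 4.67 with blank virus, while no other gene among 14 measured muscle genes met the rule.

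The last 10 members above both had small differences or uninformative names. Gm6083, AU018091, Olfr1118 and Olfr113 carry clone, predicted or olfactory receptor names, and the first of these was at 5.78 with cluster C, 3.51 with cluster B and 2.87 with blank virus. The others by size were St8sia5, Pramel27, Lrrc34, Cxcl11 and Calcoco2, with leads between 1.02 and 1.05, and the imprinted retrotransposon-derived gene Peg10. Pramel27 was the only one of the 43 members whose cluster C value at day 8 was not the highest of all 12 arrays, a rank that 8.23% of all genes had. The members nearest the threshold were AU018091 at 5.44 with cluster C, 4.43 with cluster B and 4.42 with blank virus, Peg10 at 7.94 with cluster C, 6.93 with cluster B and 6.76 with blank virus, and Calcoco2 at 5.05 with cluster C, 4.00 with cluster B and 4.03 with blank virus. The other probe set of Calcoco2 lay farther apart, at 5.50 with cluster C, 3.62 with cluster B and 3.79 with blank virus. Just outside stood the acute phase gene Saa3 at 8.59 with cluster C, 7.60 with cluster B and 7.50 with blank virus, the epithelial sorting adaptor Ap1m2 at 5.40 with cluster C, 4.41 with cluster B and 4.28 with blank virus, and Gng3 at 4.46 with cluster C, 3.47 with cluster B and 2.82 with blank virus. These 3 genes inside and 3 outside differ in their leads by hundredths of a log2 unit.

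The members below both were H2-Q5 and Pnmal1. H2-Q5, an MHC class I sequence that RefSeq lists as a transcribed pseudogene, was at 4.20 on the cluster C array, 5.48 on the cluster B array and 5.82 on the blank virus array. At day 4 it read 4.77 with cluster C, 4.61 with cluster B and 4.78 with blank virus, so the day 8 gap goes with higher values on the other arrays, which were above day 4 by 0.87 with cluster B and 1.04 with blank virus, as well as a lower one with cluster C. H2-Q genes resemble each other closely, and which of them the probe set reads is uncertain. Pnmal1 was at 3.18 with cluster C, 4.20 with cluster B and 4.27 with blank virus, and its cluster C value lies under the lower quartile. Of 11 measured MHC class I genes, 6 lay below both arrays, where 40.0% of all genes did, and 0 above both, with a median of -0.10. The median was -0.26 against cluster B alone and -0.08 against blank virus alone. Just outside the threshold on the low side were Msl3l2 at 4.00 with cluster C, 5.45 with cluster B and 4.91 with blank virus, Senp8 at 3.59 with cluster C, 4.49 with cluster B and 4.58 with blank virus, and Saa1 at 3.18 with cluster C, 4.33 with cluster B and 4.07 with blank virus.

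Some members are neighbours in the genome. Nanog and Slc2a3 are adjacent genes in the RefSeq order, as are Dppa5a and Ooep, and the 5 microRNA genes lie together. Promoters were compared for the 25 of 43 members above both that RefSeq (GRCm38.p6) gave in the promoter table, as 250 bases before to 50 after each start. The letters ATGCAAA on either strand, the core of an Oct4 binding site, occurred in 4 of the 25 (16.0%), against 5.24% of 27025 genes. CATTGT, the Sox core, occurred in 5 (20.0%, against 14.3%), and CCCACCC, a Klf site, in 8 (32.0%, against 19.4%). A match is a run of letters and not a measured site. The promoters of 3 of these members that hold the first motif, Nanog, Sox2 and Apela, and of Tdgf1, which has none, follow in lower case with ATGCAAA and its reverse complement TTTGCAT in capitals. They are shown because Nanog and Sox2 are the factors that the pluripotency programme turns on, and Tdgf1 has the second largest difference among genes outside the microRNA set.
Nanog (chr6:122707239-122707538, plus strand): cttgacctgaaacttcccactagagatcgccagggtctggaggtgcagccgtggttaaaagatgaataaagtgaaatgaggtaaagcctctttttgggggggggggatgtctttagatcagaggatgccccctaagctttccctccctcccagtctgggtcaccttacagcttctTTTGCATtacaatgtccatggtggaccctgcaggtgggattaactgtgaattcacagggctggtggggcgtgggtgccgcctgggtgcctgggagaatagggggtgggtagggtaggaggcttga
Sox2 (chr3:34649745-34650044, plus strand): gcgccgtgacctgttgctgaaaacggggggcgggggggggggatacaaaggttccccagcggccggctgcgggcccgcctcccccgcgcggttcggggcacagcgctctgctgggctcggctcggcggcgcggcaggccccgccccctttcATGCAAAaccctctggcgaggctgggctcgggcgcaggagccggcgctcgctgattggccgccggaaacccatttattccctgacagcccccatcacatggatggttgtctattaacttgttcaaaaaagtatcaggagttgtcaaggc
Apela (chr8:65037287-65037586, minus strand): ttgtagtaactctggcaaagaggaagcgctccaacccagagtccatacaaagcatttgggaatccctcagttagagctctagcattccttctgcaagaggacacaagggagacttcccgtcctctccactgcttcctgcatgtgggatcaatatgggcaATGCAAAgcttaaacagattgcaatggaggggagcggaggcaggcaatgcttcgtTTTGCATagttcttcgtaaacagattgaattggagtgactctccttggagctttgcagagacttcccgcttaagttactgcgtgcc
Tdgf1 (chr9:110946109-110946408, minus strand): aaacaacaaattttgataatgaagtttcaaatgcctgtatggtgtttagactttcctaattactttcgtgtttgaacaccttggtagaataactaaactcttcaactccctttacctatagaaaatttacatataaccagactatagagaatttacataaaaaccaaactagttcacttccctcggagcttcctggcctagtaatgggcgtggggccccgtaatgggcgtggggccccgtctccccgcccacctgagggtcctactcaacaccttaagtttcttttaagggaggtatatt
The Nanog match starts 75 bases before the start site, and a CATTGT match lies 8 bases from it, counted start to start. The Sox2 match starts 99 bases before its start site, and Apela has 2, at 91 and 36 bases. Tdgf1 has none in this window, which says nothing on the factor.

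The day 4 arrays and the arrays without SKO were not used by the rule. On the 3 day 4 arrays with SKO, the 5 microRNA genes again lay at least 1 unit above both others, and 0 of the 38 other members above both did, where 23 of all genes, 0.115%, did. Of these 38, 16 lay above both at day 4 by any amount, 10 below both and 12 between, where 34.8% of all genes lay above both and 35.1% below. The mean of the 2 differences at day 4 had a median of 0.06 and ran from -0.45 to 0.79. Without SKO at day 8, 7 of the 38 lay above both (32.4% of all genes) and 14 below both (35.0%), and only Mir302b among all 43 reached 1 unit, which 0.0201% of genes did. Without SKO at day 4, the 5 microRNA genes all lay at least 1 unit above both on the cluster C array, where 8 of all genes did. Mir302b was then at 5.82 with cluster C, 2.30 with cluster B and 1.74 with blank virus. On the cluster C array without SKO at day 8, Mir302b was at 2.86, Mir302a at 2.11 and Mir302d at 3.03. Mir302c was at 2.32 and Mir367 at 2.02 there, so all 5 lay under the lower quartile. The other members were thus read without SKO at day 8 on an array where these probe sets were dim. At day 4 with SKO, Mir302d was at 6.02 with cluster C, 2.19 with cluster B and 2.07 with blank virus. Dppa5a was then at 3.30 with cluster C, 3.48 with cluster B and 3.53 with blank virus, Tdgf1 at 3.82 with cluster C, 3.13 with cluster B and 3.73 with blank virus and Nanog at 5.37 with cluster C, 5.33 with cluster B and 5.34 with blank virus. The cluster C array thus stood apart for the microRNA and not for these 3 pluripotency genes. Other members on the pluripotency lists were already higher with cluster C at day 4. Nr0b1 led by 0.84 over cluster B and 0.75 over blank virus, and Bex1 by 0.36 over cluster B and 1.17 over blank virus. Without SKO at day 8, Dppa5a was at 4.12 with cluster C, 4.02 with cluster B and 3.40 with blank virus, and Nanog at 5.35 with cluster C, 5.06 with cluster B and 5.72 with blank virus.

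**Figure D3:**
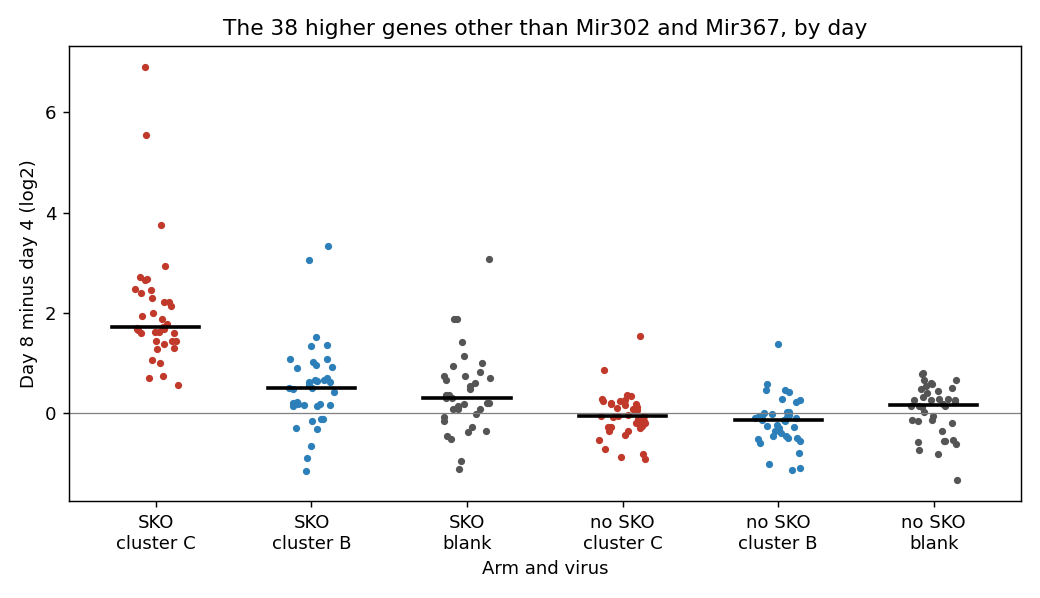
Day 8 minus day 4 in log2 units for the 38 members other than the microRNAs, with 1 point per gene, by virus and by SKO, and a black bar at each median. Most points of SKO with cluster C lie above 1 unit, while the points of SKO with cluster B and SKO with blank virus spread around 0.49 and 0.29, and those without SKO lie near 0.

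Against the day 4 array of the same virus, the 38 members outside the microRNAs were higher at day 8 by a median of 1.71 with SKO and cluster C. The same median was 0.49 with cluster B and 0.29 with blank virus. With cluster C, 34 of the 38 were at least 1 unit higher at day 8, where 1.69% of all genes were. With cluster B 8 were (1.41% of all genes), and with blank virus 5 (1.37%). The day 8 arrays chose the members, so these counts describe them and test nothing. Without SKO the median was -0.06 with cluster C, -0.14 with cluster B and 0.16 with blank virus, and 1 gene (0.908% of all genes), 1 gene (1.06%) and 0 genes (1.17%) were at least 1 unit higher. The genes that also were higher with cluster B and blank virus include Dppa5a, by 3.33 and 3.08, Tdgf1, by 3.04 and 1.88, and Nanog, by 1.06 and 0.999. Nr0b1 was flat in both, at 0.15 and -0.02, against 2.13 with cluster C, and Fam169a, Dppa2, Dnmt3l and Tdrd12 were likewise within 0.20 of their day 4 values on both arrays, with 1.62 to 2.46 on the cluster C array. Over the 38, the cluster B array of day 8 exceeded the blank virus array for 24, by a median of 0.07.

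**Figure D4:**
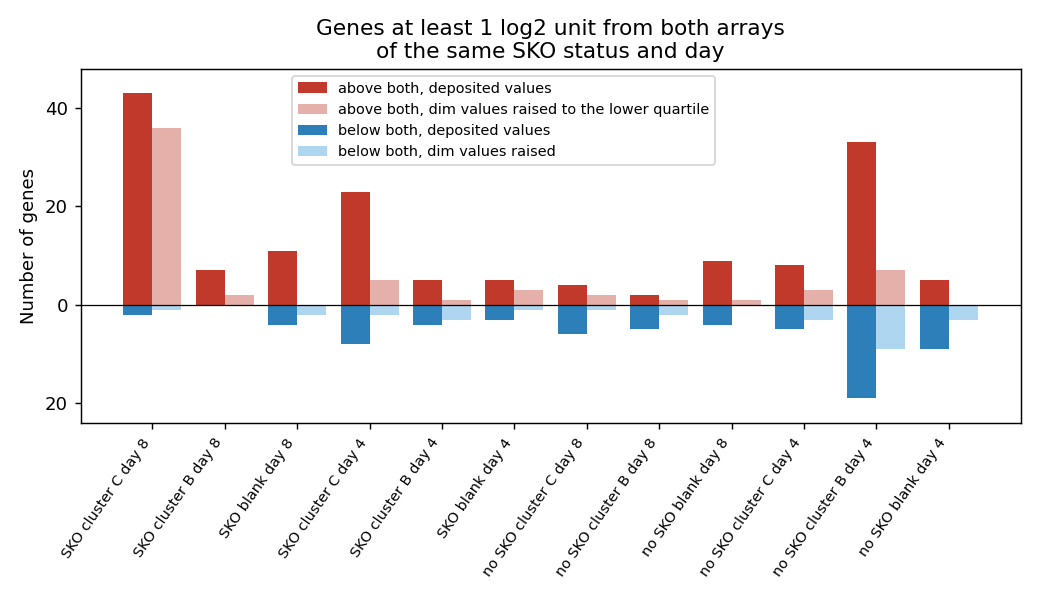
Number of genes at least 1 log2 unit above both (upward) or below both (downward) of the 2 other arrays with the same SKO status and day, for each of the 12 arrays, as deposited and with dim values raised to the lower quartile. The cluster C array of day 8 with SKO has 43 above both, 36 after raising, against 7 or fewer after raising on every other array.

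Any array can differ from 2 others, so the same count was taken for each of the 12 arrays within its own set of 3. The cluster C array of day 8 with SKO had 43 genes above both, and the other 11 arrays had 2 to 33. The 33 belong to the cluster B array of day 4 without SKO, and 23 to the cluster C array of day 4 with SKO. With values under the lower quartile raised to it, the cluster C array of day 8 kept 36 genes above both and the other 11 had 0 to 7. At least 2 units above both were 13 genes on it and 0 to 5 on the others. At 0.58 units, which is 1.5-fold, 197 genes (0.988%) lay above both, within the range of 41 to 327 of the others. Below both by as much were 60 genes (0.301%), within their range of 39 to 141. The 2 genes below both at 1 unit also lay within the range of the other arrays, 0 to 19.

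Besides single genes, lists of genes show smaller shifts. A list is described by the median over its genes of the cluster C array minus the mean of the other arrays, against -0.02 for all genes at day 8. It is also described by how many of its genes lay above both or below both. Of all genes, 32.9% lay above both and 40.0% below both at day 8. At day 4 these shares were 34.8% and 35.1%. Of 25 measured pluripotency transcription factors, 20 lay above both arrays and 2 below, with a median of 0.44 at day 8 and 0.09 at day 4. Of 32 other pluripotent cell markers, 28 lay above both and 1 below, with a median of 0.33 at day 8 and 0.02 at day 4. Of 30 genes of epithelial adhesion and tight junctions, 25 lay above both and 3 below, with a median of 0.45 at day 8 and 0.11 at day 4. Cdh1 (E-cadherin) was at 7.19 with cluster C, 6.62 with cluster B and 6.34 with blank virus, and Epcam at 7.85 with cluster C, 7.32 with cluster B and 7.20 with blank virus. Both were named after their values were seen, as was Esrp1, an epithelial splicing factor, at 5.34 with cluster C, 4.42 with cluster B and 4.26 with blank virus. The lowest genes of the adhesion list were Ehf, at -0.19 from the mean of the other arrays, and Cldn3, at -0.14. Desmosome and keratin genes had 15 of 24 above both, 5 below both and a median of 0.26. Cluster B minus blank virus had a median of 0.17 on the adhesion list and 0.12 on the desmosome and keratin list. Sfn, an epithelial 14-3-3 protein, was at 7.36 with cluster C, 6.53 with cluster B and 6.10 with blank virus.

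Mesenchymal genes lay a little lower on the cluster C array. Of 25 mesenchymal transition factors and surface genes, 23 lay below both arrays, with a median of -0.20 at day 8 and -0.15 at day 4, where 19 lay below both. Of 35 collagen and matrix genes, 31 lay below both, with a median of -0.30 at day 8 and -0.20 at day 4. No gene of either list was a member, and Ogn, a matrix proteoglycan, had the largest difference of the matrix list, at 7.94 with cluster C, 8.57 with cluster B and 8.77 with blank virus. Elastin (Eln) was at 9.38 with cluster C, 9.79 with cluster B and 10.04 with blank virus.

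Genes of G2/M and mitosis lay mostly on opposite sides of the other arrays on the 2 days. At day 8, 24 of 24 genes of G2/M and mitosis lay above both arrays, by a median of 0.38, and none was a member. At day 4, 4 lay above both and 17 below both, with a median of -0.18. The 17 that lay below both at day 4 all lay above both at day 8. Bub1, a spindle checkpoint kinase, was at 7.59 with cluster C, 6.68 with cluster B and 6.73 with blank virus at day 8 and at 7.48 with cluster C, 7.80 with cluster B and 7.47 with blank virus at day 4. Top2a, a topoisomerase of dividing cells, was at 9.20 with cluster C, 8.55 with cluster B and 8.62 with blank virus at day 8 and at 9.19 with cluster C, 9.41 with cluster B and 9.21 with blank virus at day 4. For both genes the cluster C values at day 8 stood near those of day 4, and the other arrays were lower at day 8. Both had the largest differences of the list. The median level of the list with cluster C was lower at day 8, at 7.34 against 7.68 at day 4. It went from 7.73 to 6.88 with cluster B and from 7.69 to 6.80 with blank virus. Of 29 genes of G1/S and DNA replication, 26 lay above both at day 8, with a median of 0.32, and at day 4, 4 lay above both and 11 below both, with a median of -0.04. Of these 29, 10 lay above both at day 8 and below both at day 4. Of 17 measured cell cycle inhibitors and p53 targets, 11 lay above both, with a median of 0.09.

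**Figure D5:**
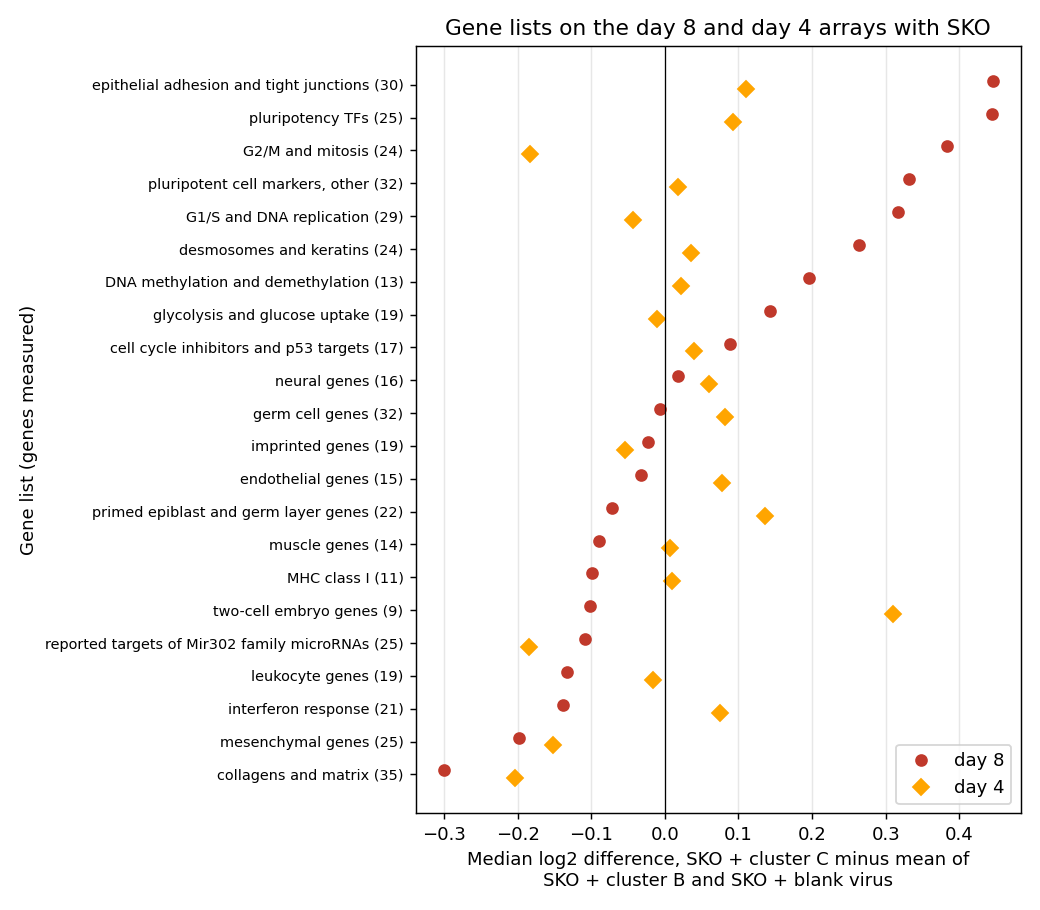
Median difference of the cluster C array from the mean of the 2 other SKO arrays, in log2 units, for each gene list, at day 8 and day 4. Pluripotency, epithelial and cell division lists lie to the right of 0 at day 8, and the matrix list lies farthest to the left.

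Reported targets of the Mir302 family lay below both arrays at day 8 for 16 of 25 measured genes and above both for 6. Their median was -0.11, and 40.0% of all genes lay below both. At day 4, 21 lay below both and 2 above both, with a median of -0.18, where 35.1% of all genes lay below both. Meox2, a homeobox gene of mesenchyme, was the lowest at 7.18 with cluster C, 7.89 with cluster B and 7.85 with blank virus. Rbl2, a pocket protein that restrains the cell cycle, was at 6.47 with cluster C, 6.87 with cluster B and 6.90 with blank virus. Lefty2, a member above, is on the same list. Interferon genes had 9 of 21 below both, where 40.0% of all genes lay below both, and 4 above. Their median of -0.14 changed sign with the array compared: it was -0.26 against cluster B alone and 0.012 against blank virus alone. The list members above and below both, like those of the other lists, were chosen with results of these data known and give no independent support.

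Markers of cell types were read on the same arrays. All 10 of 10 measured fibroblast markers, at 7.96 to 11.42 on the cluster C array, were brighter than the median of all values there and lay below both other arrays, by a median of -0.31. Fibroblast genes thus remained among the brighter ones. Of 8 pluripotent cell markers, 7 lay above both, and their summed log2 level was 55.9 on the cluster C array, 43.5 on the cluster B array and 40.8 on the blank virus array. Of these 8, 6 are members chosen by the same values (Nanog, Sox2, Dppa5a, Tdgf1, Esrrb and Utf1), so this count and sum restate the choice. All 6 epithelial markers lay above both, and their sum was 44.2 with cluster C, 40.1 with cluster B and 37.9 with blank virus, with the members Krt18 and Cldn4 among them. Leukocyte markers summed to 29.9 with cluster C, 30.7 with cluster B and 31.1 with blank virus, with 1 of 6 above both and 4 below. Endothelial markers summed to 21.5 with cluster C, 21.0 with cluster B and 20.6 with blank virus and muscle ones to 20.6 with cluster C, 20.3 with cluster B and 19.7 with blank virus, and of 5 neural markers 2 lay above both and 0 below. All 4 germ cell markers lay under the lower quartile on each array. What the shift of pluripotent and epithelial markers contributes to the members was not tested.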

How the data were processed

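The authors deposited log2 values for 28853 probe sets and 12 arrays (range 0.916 to 14.034). The submitters' processing notes list RMA and Partek. Build and probe annotation: not given in the sources used here. Per the labels' protocols, 100 ng of RNA was biotin labelled for Affymetrix arrays. Precision is limited by the number of arrays, and nothing says whether arrays came from separate cultures. Array medians lay between 4.98 and 5.07, no value was missing, and the most similar arrays still differed by 0.167 on average.

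The platform annotation gave gene names: 21789 probe sets had 1 gene, 1621 several and 5443 none. For 999 genes with several probe sets the brightest was used, giving 19938 genes, of which 19919 were in RefSeq. Members and lists were chosen with earlier results of these data known. Differences were taken per array; no test was possible with 1 array a condition. The 25 members with the largest smaller difference above both and up to 15 below both were to be named, leaving out predicted, receptor and small RNA genes, as were list members, list extremes, delivered factors and genes beside the threshold. There were 22 lists, with 468 of 519 genes measured. The counting was tested on simulated data. Alternatives were other thresholds, a required ratio to the spread, probe set summaries, a dim filter, a floor, normalization and single comparison arrays. Python 3.11.15, numpy 2.4.6, pandas 2.3.3 and matplotlib 3.10.9 were used.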

Additional observations from a re-analysis of the deposited data

Results flagged for a closer look

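Dppa5a was 3.40 log2 units above the nearer array at day 8, and at day 4 its cluster C value lay below both, at -0.18 from the nearer. Gm6083 was 2.27 units above at day 8 and below both at day 4. These opposite directions over the days were not tested, and both genes were dim at day 4, under the lower quartile.

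Outside the named genes, 27 of 7064 probe sets with no gene or several lay at least 1 unit above both arrays on the cluster C array at day 8, and 3 lay below both. Of the 27, 21 have no gene name and 6 have several. They hold 21 distinct sets of readings, since some probe sets share identical values. At day 4, 18 such probe sets lay above both, and 0 are shared between the days.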

How the results depend on the processing

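With 1 array a condition nothing separates a condition from its array, and values under the lower quartile bound a difference from below. The 43 genes above both became 41 under quantile normalization, 46 with the mean of probe sets, 41 when the lead had to exceed 2 times the spread, 36 with a floor, 33 among genes above the median and 61 against cluster B alone. They became 197 at 0.58 units, 13 at 2 units, 81 with every probe set, 78 against blank virus alone and 65 against the mean of both. The 2 genes below became 60 at 0.58 units, 0 at 2 units, 6 with every probe set, 1 among genes above the median, 1 with the floor, 1 under quantile normalization, 21 against blank virus alone, 13 against cluster B alone and 6 against the mean. A looser rule or more probe sets give larger counts by construction. Of 154 list medians recomputed, 149 moved little, 3 moved and 2 changed sign from a size of at least 0.1. Among brighter genes, pluripotency factors moved to 0.69 and germ cell genes to 0.63. MHC class I moved to -0.26 against cluster B alone. The 2 sign changes were early embryo genes to 0.034 among brighter genes, from -0.10, and interferon genes to 0.012 against blank virus alone, from -0.14. Medians under 0.1 in size also changed sign in some settings, and those changes are not among these 2. Primed epiblast and germ layer genes went from -0.07 to 0.038 against cluster B alone. Muscle genes went from -0.09 to 0.0032 against blank virus alone. The cause was not tested. No paired analysis was possible because the comparison is of 3 arrays of day 8 with SKO, and a pair from another day or without SKO would bring in other conditions.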

Other observations

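Several groups of other tissues and states lay near the median of all genes at day 8. Germ cell genes had a median of -0.01, with 13 of 32 above both arrays and 10 below, and Rhox9 was the highest after Tdrd12. Genes active in the embryo at its first divisions had a median of -0.10, with 2 of 9 above both. Primed epiblast and germ layer genes had a median of -0.07, with 9 of 22 above both and 7 below. Tfap2c, a factor of trophoblast and germ cells, stood out in that list at 5.38 on the cluster C array, 4.52 on the cluster B array and 4.16 on the blank virus array. Imprinted genes had a median of -0.02, with 6 of 19 above both and 9 below.

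Leukocyte genes had a median of -0.13, endothelial genes -0.03, neural genes 0.02 and muscle genes -0.09. Of these, leukocyte genes lay below both arrays for 10 of 19 and above both for 3.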
